A study of Mus musculus with 2 samples.

Results

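The cells described here were dendritic cells that carried the C-type lectin Cd209a and RNA of at most 1 of 4 maturation genes, among CD45+ leukocytes infiltrating TSA tumors. They were chosen from the raw counts as cells with 2 or more unique molecular identifiers (UMIs, which stand for captured RNA molecules) of Cd209a, UMIs of at most 1 of the maturation genes Ccr7, Fscn1, Ccl22 and Cacnb3, no UMI of the T cell gene Cd3e or the natural killer cell gene Ncr1, at most 1 UMI of the monocyte gene Ly6c2, at most 1 UMI of Xcr1 and Clec9a together (both mark type 1 dendritic cells), and complement C1q genes below 0.2% of the cell's UMIs. This rule found 58 of 6198 cells, namely 26 of 2922 untreated and 32 of 3276 NAM cells. TSA is a mouse mammary adenocarcinoma line grown under the skin of immunocompetent female BALB/c mice aged 6 to 15 weeks, and NAM is nicotinamide, a form of vitamin B3 and a precursor of NAD. The mice of the NAM library drank water with 0.5% nicotinamide for 10 days and the others were left untreated, and each library pooled the tumors of 3 mice. With 1 library a group there is no test of NAM: every interval below is a 95% interval of counting error only, and NAM and the library cannot be told apart.

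Conventional dendritic cells take up antigen, cut it and load the peptides onto MHC class II molecules for CD4+ T cells, and they develop under the growth factor receptor Flt3. The type 2 branch, which carries lectins such as Cd209a and Clec10a, is known for MHC class II presentation, whereas the type 1 branch, marked by Xcr1 and Clec9a, is known for cross-presentation to CD8+ T cells. On maturation both branches gain Ccr7 and move to lymph nodes, and monocytes that enter inflamed tissue can also acquire Cd209a and MHC class II, so that Cd209a alone does not define a lineage.

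The untreated members held 224259 UMIs and the NAM members 283807, with medians of 8178.5 (range, 3749 to 16705) and 8446.5 (3385 to 15904) UMIs per cell. The medians of all cells were 9056 and 9128 UMIs, and no member lay above the 95th percentile of its library, so unusually deep cells did not enter the group. The libraries shared 11 cell barcodes, none of them a member's. Members made up 0.890% (exact binomial interval, 0.582% to 1.30%) of untreated cells and 0.977% (0.669% to 1.38%) of NAM cells, a log2 ratio of shares of 0.13 (−0.66 to 0.94). The share of these cells therefore did not differ beyond counting error, and the interval leaves room for a change of more than 1.5-fold either way.

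Of the 92 cells with 2 or more Cd209a UMIs, 12 were kept out by Ly6c2 alone, 8 by C1q alone, 6 by the maturation genes alone and 2 by Cd3e alone. Cd209a itself, the rule's leading gene (GRCm38, chr8:3743397-3748984, minus strand), ranged from 2 over a median of 8.5 to 69 UMIs in untreated members and from 2 over 5.5 to 45 in NAM members. At the edge of the rule, 9 members lay at exactly 2 UMIs (5 untreated, 4 NAM) and 7 further cells met every other condition with 1 UMI. The highest C1q share of a member was 0.0994% of UMIs among untreated and 0.167% among NAM cells, and the lowest among cells kept out by C1q alone was 0.219%. The boundary towards mature cells was less empty: 11 untreated and 9 NAM members had UMIs of 1 maturation gene, and Ccr7 was found in 10 and 5 of them. The highest had 22 Ccr7 UMIs of 4810 among untreated and 11 of 4436 among NAM members, so that the rule limits the number of maturation genes and not the level of each.

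To place these cells, each was compared with 4 other classes from the same libraries, described here only to show where the members differ: mature dendritic cells (2 or more maturation genes; 32 untreated and 21 NAM cells), type 1 dendritic cells (24 and 30), monocytes with 2 or more Ly6c2 UMIs (196 and 224) and C1q-rich macrophages (1898 and 2090). Because the same counts chose the members and the classes, these levels are a description with no test. Levels are UMI counts per 1000000 UMIs of the class (CPM), which in this 3′ end assay do not scale with transcript length. Median depth differed between classes, from 5080.5 UMIs in NAM monocytes to 15795 in NAM type 1 dendritic cells.

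Cd209d, a neighbouring gene of the same lectin family (chr8:3871824-3878555), stood at 517 CPM (interval, 427 to 620) in untreated and 159 CPM (116 to 212) in NAM members, against 45 and 316 CPM in mature dendritic cells and at most 3 CPM in monocytes and macrophages, so that in the NAM library it was lower in members than in mature dendritic cells. It came from 12 of 26 untreated and 7 of 32 NAM members, and no T cell of either library had a UMI of it. Mgl2, which encodes a galactose-type lectin, reached 1035 and 923 CPM in members, 264 and 494 in mature dendritic cells and at most 63 in macrophages. Clec10a, its close relative, reached 250 and 134 CPM, and no other class exceeded 65 CPM.

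Ifitm1, which encodes an interferon-induced transmembrane protein that restricts virus entry (chr7:140967221-140969825), was among the most abundant markers of the members. It stood at 3005 CPM (2783 to 3241) in untreated and 5113 CPM (4853 to 5383) in NAM members, against 1131 and 1608 in mature dendritic cells, 437 and 926 in monocytes and 72 and 126 in macrophages. A UMI of Ifitm1 was seen in 24 of 26 and 28 of 32 members, and in 14 of 178 and 20 of 235 T cells, the class used to read free RNA. The related Ifitm3 (5043 and 4880 CPM) was as high or higher in monocytes (5567 and 6452 CPM), so that members exceeded monocytes in Ifitm1 and not in Ifitm3.

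Flt3, the growth factor receptor of dendritic cells (chr5:147330741-147400489), was sparse: 7 UMIs in 6 untreated members (31.2 CPM, 12.5 to 64.3) and 12 UMIs in 10 NAM members (42.3 CPM, 21.8 to 73.9). These levels lay below those of mature (81 and 107 CPM) and type 1 dendritic cells (116 and 72 CPM) and above those of monocytes (0 and 2 CPM). As a share of cells, 23.1% and 31.2% of members had a Flt3 UMI, against 0.562% and 0.426% of T cells (median depths, 4512.5 and 4400 UMIs). With every cell thinned to 3000 UMIs the members' shares were 0% (up to 13.2%) and 9.38%. A member without a Flt3 UMI can therefore not be read as lacking Flt3 at this depth.

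**Figure D1:**
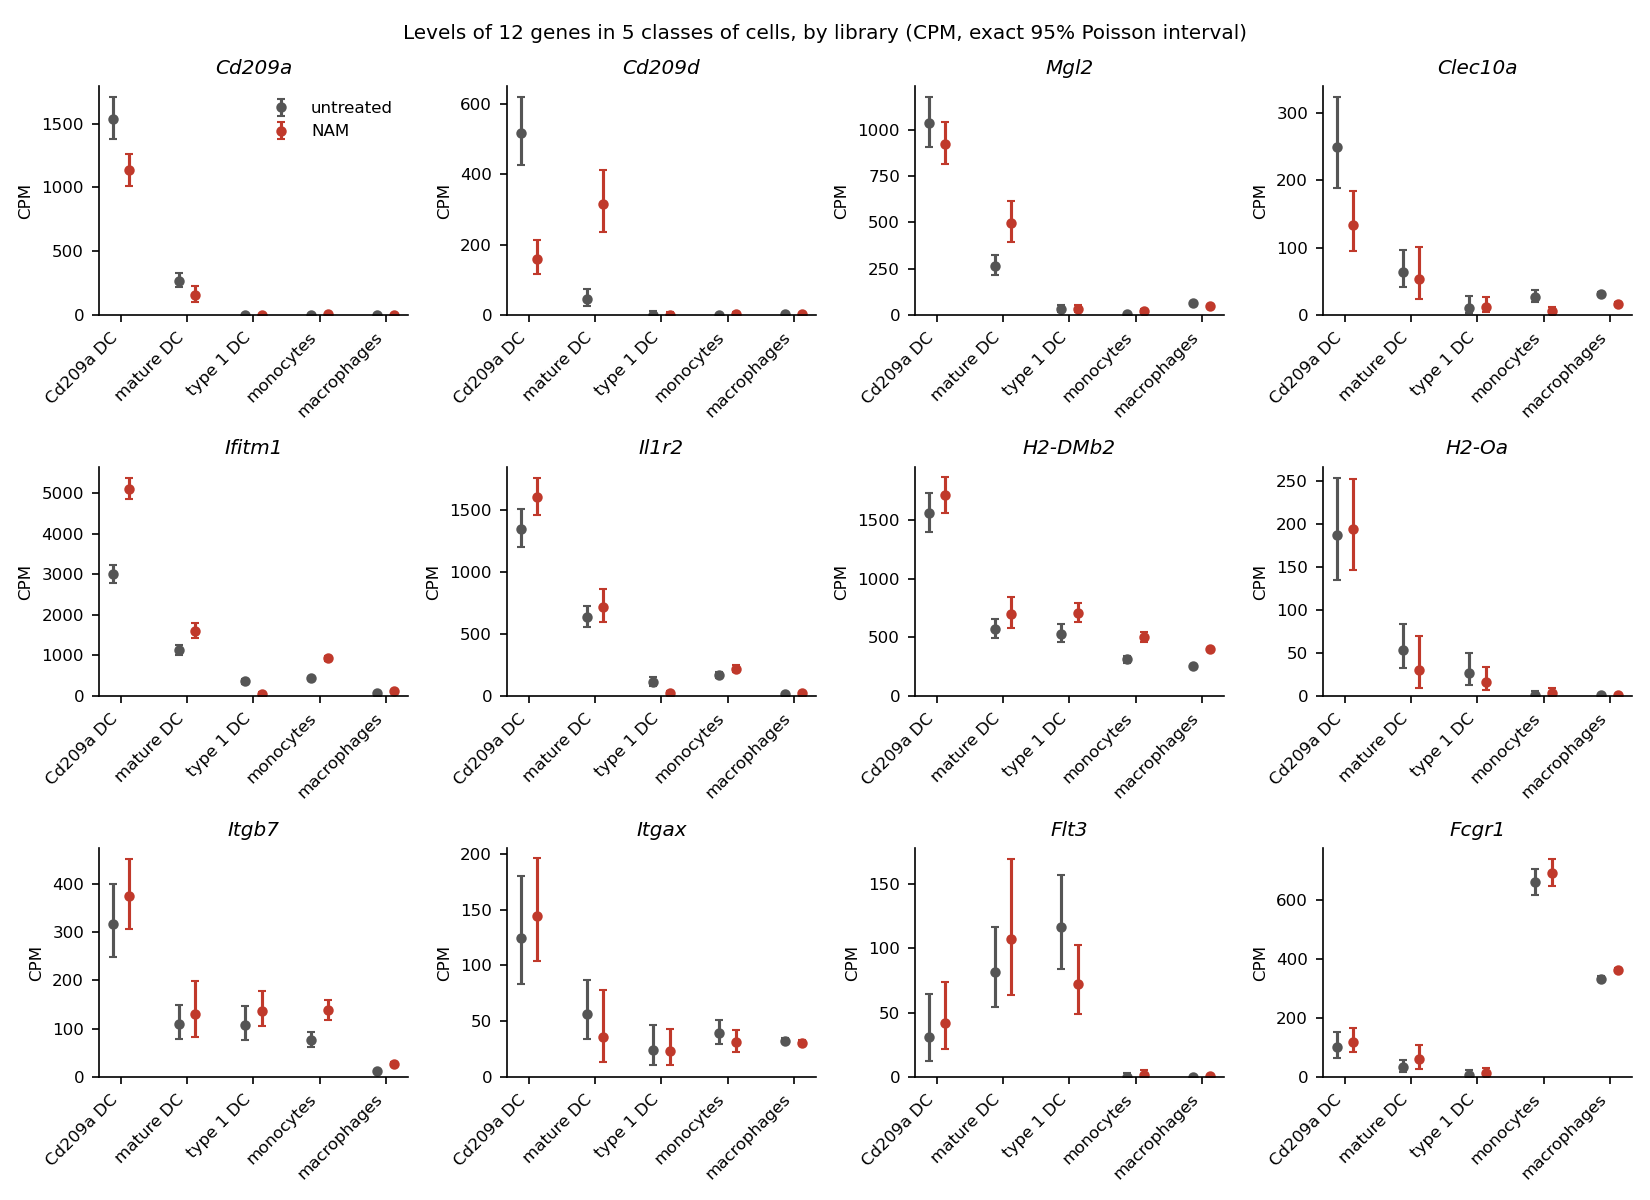
Levels of 12 genes (y axis, CPM, from 0, a different range in each panel) in 5 classes of cells (x axis) in the untreated (grey) and NAM (red) libraries, with bars for the exact 95% Poisson interval of the UMI sum. Cd209a, which the rule used, and Mgl2, Clec10a, Il1r2, H2-DMb2, H2-Oa, Itgb7 and Itgax stand highest in the members in both libraries, whereas Flt3 is lower than in the other dendritic cells and Fcgr1 lower than in monocytes.

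Irf8, a transcription factor that type 1 dendritic cells need, marked the distance to the other dendritic cells. It stood at 147 and 254 CPM in members, at 819 and 917 CPM in mature and at 2068 and 2006 CPM in type 1 dendritic cells. Of 2804 genes with 20 or more UMIs in the members, 159 (5.67%) were at least 2-fold higher in members than in mature dendritic cells in both libraries and 69 (2.46%) lower. Against type 1 dendritic cells these counts were 330 (11.8%) and 47 (1.68%), against monocytes 158 (5.63%) and 124 (4.42%), and against macrophages 221 (7.88%) and 110 (3.92%).

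Of the 2804 genes, 19 (0.678%) were at least 2-fold higher than in each of the 4 other classes in both libraries. By the smallest of the 8 log2 ratios, among genes with 50 or more UMIs and leaving out those of the rule, they were led by the lectin Clec4b1 (1.86), H2-Oa of the MHC class II list (1.79), the cytochrome P450 gene Cyp4f16 (1.45), the integrin subunit Itgb7 (1.44) and Ifitm1 (1.41). H2-DMb2, a subunit of the chaperone that loads peptide onto MHC class II, followed at 1.28, then Clec10a at 1.26, Itgax (CD11c) at 1.14, the aspartic protease Napsa at 1.09 and the decoy interleukin-1 receptor Il1r2 at 1.07. Most of these levels were similar in the libraries: H2-Oa stood at 187 and 194 CPM, Itgb7 at 317 and 373 CPM, Napsa at 896 and 920 CPM and Il1r2 at 1347 and 1607 CPM in untreated and NAM members.

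RNA for MHC class II presentation took 9.93% of the UMIs of untreated and 11.4% of those of NAM members. The shares were 6.28% and 6.64% in mature dendritic cells, 6.66% and 7.69% in type 1 dendritic cells, 3.89% and 5.28% in monocytes and 4.06% and 5.20% in macrophages. Single members spanned 0.952% over a median of 9.73% to 16.0% among untreated and 4.29% over 11.3% to 15.7% among NAM cells. The untreated member at 0.952% stood apart: it carried 36 Cd209a, 34 Cd209d, 15 Cd209e and 20 Clec10a UMIs, its H2-Aa count was 12, and it alone had 0.238% of its UMIs on the T cell list.

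The dendritic cell label was checked against lists of markers. The type 2 list, less Cd209a as the rule's own gene, took 0.431% and 0.425% of the members' UMIs, 0.170% and 0.232% in mature dendritic cells, 0.158% and 0.169% in monocytes and less in macrophages and type 1 dendritic cells. The list of genes common to dendritic cells took 0.207% and 0.186%, which was below mature (0.339% and 0.316%) and type 1 dendritic cells (0.293% and 0.301%) and close to monocytes (0.203% and 0.183%). Zbtb46, a transcription factor of conventional dendritic cells, had 2 UMIs in each library's members. On the other side, Mertk, a receptor of macrophages, had 0 UMIs in either library (3 UMIs would correspond to 13.4 and 10.6 CPM). Fcgr1, the high-affinity IgG receptor of monocytes and macrophages, stood at 103 and 120 CPM against 660 and 691 CPM in monocytes, and Apoe at 548 and 1064 CPM against 16492 and 15317 CPM in macrophages. Summed over members, the type 2 list, Fcgr1 and Apoe differed from monocytes or macrophages, but the rule's limits on Ly6c2 and C1q fix part of that difference. The 17 cells with 2 or more UMIs of both Cd209a and Ly6c2 counted neither as members nor as monocytes. The list common to dendritic cells did not separate members from monocytes. Less Cd14 and the rule's genes, the highest NAM member had 1.09% on the monocyte list, above the 0.895% of NAM monocytes. The defining dendritic cell genes Flt3 and Zbtb46 are too sparse to assign each cell, and the name is used here for cells meeting the rule. Lists of B cell, mast cell, neutrophil, NK cell and epithelial markers had between 0 and 10 UMIs in the members of either library, and 25 of the 29 T cell UMIs lay in 3 untreated members.

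With the genes of the rule left out, the 30 nearest neighbours of each cell over 35 principal components were read. Of the members' neighbours, 49.3% were members on average, although members made up 0.936% of all cells. Cells in none of the classes made up 18.2% of them, monocytes 10.7%, mature dendritic cells 7.53%, macrophages 4.66%, type 1 dendritic cells 2.30% and other cells with 2 or more Cd209a UMIs 7.30%. Members were the most frequent class among the neighbours of 48 of 58, and 2 members had no member among their neighbours. For the others the most frequent class was monocytes in 3, macrophages in 3, type 1 dendritic cells in 2 and no class in 2. Single NAM members had up to 76.7% monocytes and up to 53.3% macrophages among their neighbours. In untreated members the highest shares were 30% and 26.7%.

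**Figure D2:**
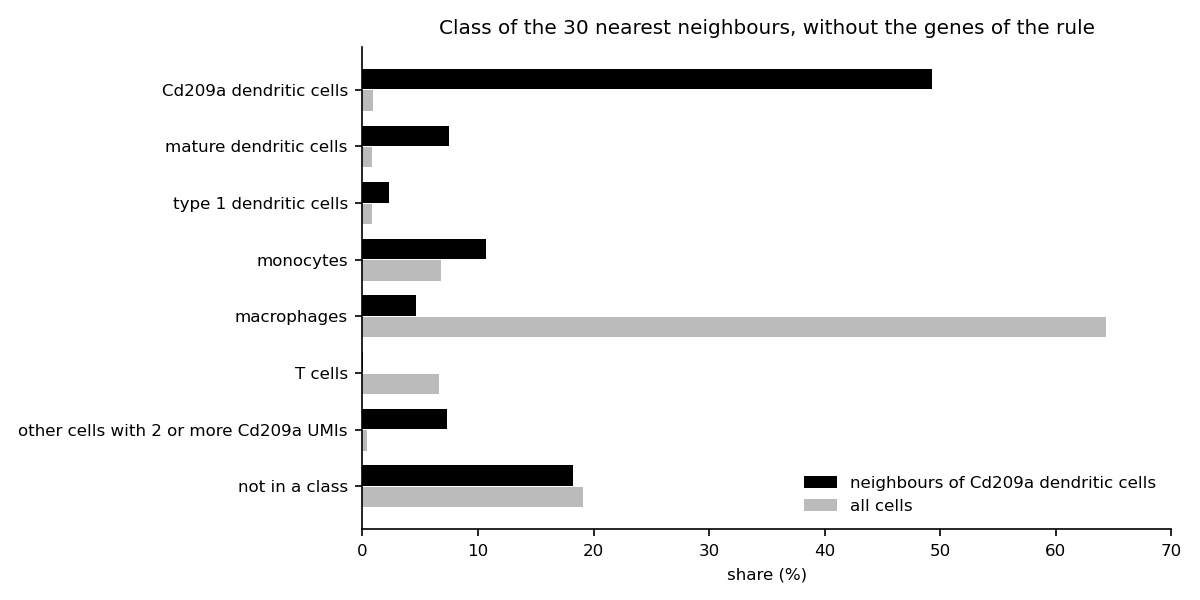
Share (x axis, %) of each class (y axis) among the 30 nearest neighbours of the 58 Cd209a dendritic cells, averaged over members (black), and among all cells (grey). Members took 49.3% of the neighbours and macrophages, the most frequent class among all cells, 4.66%.

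NAM members were then set against untreated members. A gene was counted as higher or lower where its UMI sums differed by 1.5-fold or more and the exact interval of the ratio left out 0 on the log2 scale. Of 2804 genes, 100 (3.57%) were higher and 215 (7.67%) lower in NAM, the shares against which the counts for each list are to be read, and the median log2 ratio of all genes was −0.03. With the 5 highest cells of each gene left out, the median of all genes was 0.10. List medians without those cells are to be read against that value. Cells are not replicates, and a few cells could carry a difference: with the 5 cells richest in a gene's UMIs left out of each library, the interval still left out 0 for 73 (2.6%) and 86 (3.07%). In bulk sums such as these, fewer RNA-rich cells and less RNA in each cell cannot be told apart from the sum alone, so single-cell values are given beside the main genes.

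Genes induced by type I interferon were lower in NAM members. Of 19 genes of this list with enough UMIs, 14 were counted as lower and 0 as higher, against 7.67% and 3.57% of all genes, and the list's median log2 ratio was −1.20 (−0.81 with the 5 highest cells of each gene left out). This direction did not hold in the few members with a Flt3 UMI (6 untreated, 10 NAM): there the list's median was 0.30, Ifit3, Ifit1, Rsad2 and Usp18 had 0 UMIs in untreated against 3, 4, 6 and 9 in NAM members, and Isg15 had 9 against 57 (ratio, 1.74, 0.78 to 3.00). Of these NAM members, 1 held all 6 Rsad2 UMIs and had 111 UMIs of the list, the most of any NAM member. The 3 untreated members highest in the list had no Flt3 UMI. Among the list's genes with 50 or more UMIs, the lowest ratios belonged to Ifit3 and Ifit1, which encode proteins that bind viral RNA, to Rsad2, which encodes the antiviral enzyme viperin, and to Usp18, a protease that removes the ubiquitin-like protein Isg15.

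Ifit3 (chr19:34583531-34588731) had 54 UMIs in untreated and 4 in NAM members (241 and 14.1 CPM), a log2 ratio of −4.09 (−6.02 to −2.66). Ifit1 had 68 and 6 UMIs (303 and 21.1 CPM), a ratio of −3.84 (−5.34 to −2.65). Rsad2 (chr12:26442746-26456452) had 60 and 9 UMIs, a ratio of −3.08 (−4.27 to −2.06), and Usp18 had 58 and 11, a ratio of −2.74 (−3.82 to −1.79). These 4 genes were seen in few cells of either library: Ifit3 in 6 untreated and 4 NAM members, Ifit1 in 5 and 4, Rsad2 in 7 and 4, and Usp18 in 10 and 6. Without the 5 highest cells of each library no UMI of Ifit1 was left, and Ifit3 kept 1 UMI in untreated and 0 in NAM members.

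The list's RNA was concentrated in a few untreated cells. It took 2.65%, 1.89%, 1.52% and 1.16% of the UMIs of the 4 highest untreated members and at most 1.09% in a NAM member, whereas the medians were 0.169% and 0.130%. The 3 highest untreated members held 65 of 68 Ifit1 UMIs, 47 of 54 Ifit3 UMIs, 54 of 60 Rsad2 UMIs and 79 of 96 Cxcl10 UMIs. Without the 3 highest cells of each library the list's median was −0.55. Most untreated members, like most NAM members, had no UMI of Ifit1 or Ifit3.

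Irf7 (chr7:141262706-141266481), the transcription factor that amplifies the interferon response, was more evenly spread. It had 129 UMIs in 20 of 26 untreated members and 44 UMIs in 20 of 32 NAM members (575 and 155 CPM), a log2 ratio of −1.89 (−2.42 to −1.39). Per 10000 UMIs its median was 2.62 in untreated and 0.819 in NAM members, and without the 5 highest cells the ratio was −1.69 (−2.54 to −0.92), so that the difference did not rest on those cells. Rtp4, another interferon-induced gene, had 45 and 19 UMIs (ratio, −1.58), and −1.77 (−3.49 to −0.39) without the 5 highest cells. Isg15 had 188 and 103 UMIs (ratio, −1.21, −1.57 to −0.85), with 46.8% of the untreated UMIs in 1 cell, and without the 5 highest cells its interval (−1.67 to 0.03) no longer left out 0. Bst2, which encodes the virus-tethering protein tetherin, had 93 and 74 UMIs (ratio, −0.67), and Phf11b 70 and 57 (−0.64). Ifi44 (−1.64), Xaf1 (−1.27) and Ifit2 (−3.04) were also counted as lower, as were Zbp1 (−0.82) and Ifi204 (−0.96), whose ratios were 0.63 and 0.40 without the 5 highest cells.

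In monocytes and macrophages of the same libraries the list's median log2 ratio was 0.04 in each, and in mature dendritic cells −1.03. Ifit3 had a ratio of 0.44 in monocytes and 0.03 in macrophages, and Irf7 had 0.00 and 0.24. The difference between classes was not tested, since each class has 1 library a group.

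Stretches of 4 promoters are shown next, those of Ifit3, Ifit1 and Rsad2 and that of Cxcl10 from the interferon gamma list, because the interferon-stimulated response element, whose core letters are GAAANNGAAA, is the element through which type I interferon is known to act. Searched on both strands from 250 bases before to 50 bases after the start site of RefSeq (GRCm38.p6), these letters stood in 11 of the 20 promoters matched for the list (55%), in 12 of 17 for the interferon gamma list (70.6%) and in 3.99% of all 27025 genes with a promoter. Windows of 50 bases are given 5′ to 3′ in the direction of the gene, with 1 match in capitals (a match that starts with TTTC is the motif on the opposite strand). Each Ifit1 window also holds the other Ifit1 match in lower case. A match describes letters and not a site in use.
Ifit3, chr19:34583353-34583402, plus strand: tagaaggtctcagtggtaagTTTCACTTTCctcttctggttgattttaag
Ifit3, chr19:34583387-34583436, plus strand: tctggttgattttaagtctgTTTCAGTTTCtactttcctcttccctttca
Ifit1, chr19:34640765-34640814, plus strand: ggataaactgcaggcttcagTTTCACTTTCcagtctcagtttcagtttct
Ifit1, chr19:34640784-34640833, plus strand: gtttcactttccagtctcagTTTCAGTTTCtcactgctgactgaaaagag
Rsad2, chr12:26456543-26456592, minus strand: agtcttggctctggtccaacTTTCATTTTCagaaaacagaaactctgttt
Cxcl10, chr5:92349073-92349122, minus strand: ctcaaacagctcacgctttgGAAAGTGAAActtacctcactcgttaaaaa
The promoters of Ifit3 and Ifit1 hold 2 matches each, in windows that overlap, and the promoter of Irf7 holds none. No match was found for Usp18 among the promoters searched.

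Genes that answer interferon gamma did not share a direction (median log2 ratio, −0.15; 2 of 16 higher, 1 lower). The median was 0.64 without the 5 highest cells of each gene, and the list's summed UMIs had a ratio of −0.25 (−0.43 to −0.07). Cxcl10, which encodes a ligand of the T cell receptor Cxcr3, had 96 and 12 UMIs in 7 and 6 members (ratio, −3.34, −4.34 to −2.47), with 54.2% of the untreated UMIs in 1 cell. In the other direction, the transcription factor Irf1 had 9 and 32 UMIs (40.1 and 113 CPM), a ratio of 1.49 (0.39 to 2.74), Socs1, a feedback inhibitor of cytokine signalling, had 12 and 41 (1.43, 0.48 to 2.50), and Ifngr2, a chain of the interferon gamma receptor, had 17 UMIs in 10 members and 62 in 23 members (1.53, 0.73 to 2.39). Socs1 was also higher in monocytes (1.06) and macrophages (0.89), and 46.3% of its UMIs in NAM members lay in 1 cell, while the ratio of Ifngr2 was 2.41 (1.18 to 4.23) without the 5 highest cells.

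Ifitm1 was higher in NAM members, unlike the genes of the type I interferon list. Its 674 and 1451 UMIs gave a log2 ratio of 0.77 (0.63 to 0.90), its median per 10000 UMIs was 15.5 in untreated and 34.7 in NAM members, and without the 5 highest cells the ratio was 1.05 (0.85 to 1.25). The cells of the libraries overlapped over most of their range, from 0 to 128 and from 0 to 155 per 10000 UMIs. Ifitm2 was at 0.15 (0.02 to 0.28) and Ifitm3 at −0.05 (−0.16 to 0.07). Ifitm1 was also higher in NAM in monocytes (1.08), macrophages (0.81) and mature dendritic cells (0.51), and lower in type 1 dendritic cells (−2.56).

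**Figure D3:**
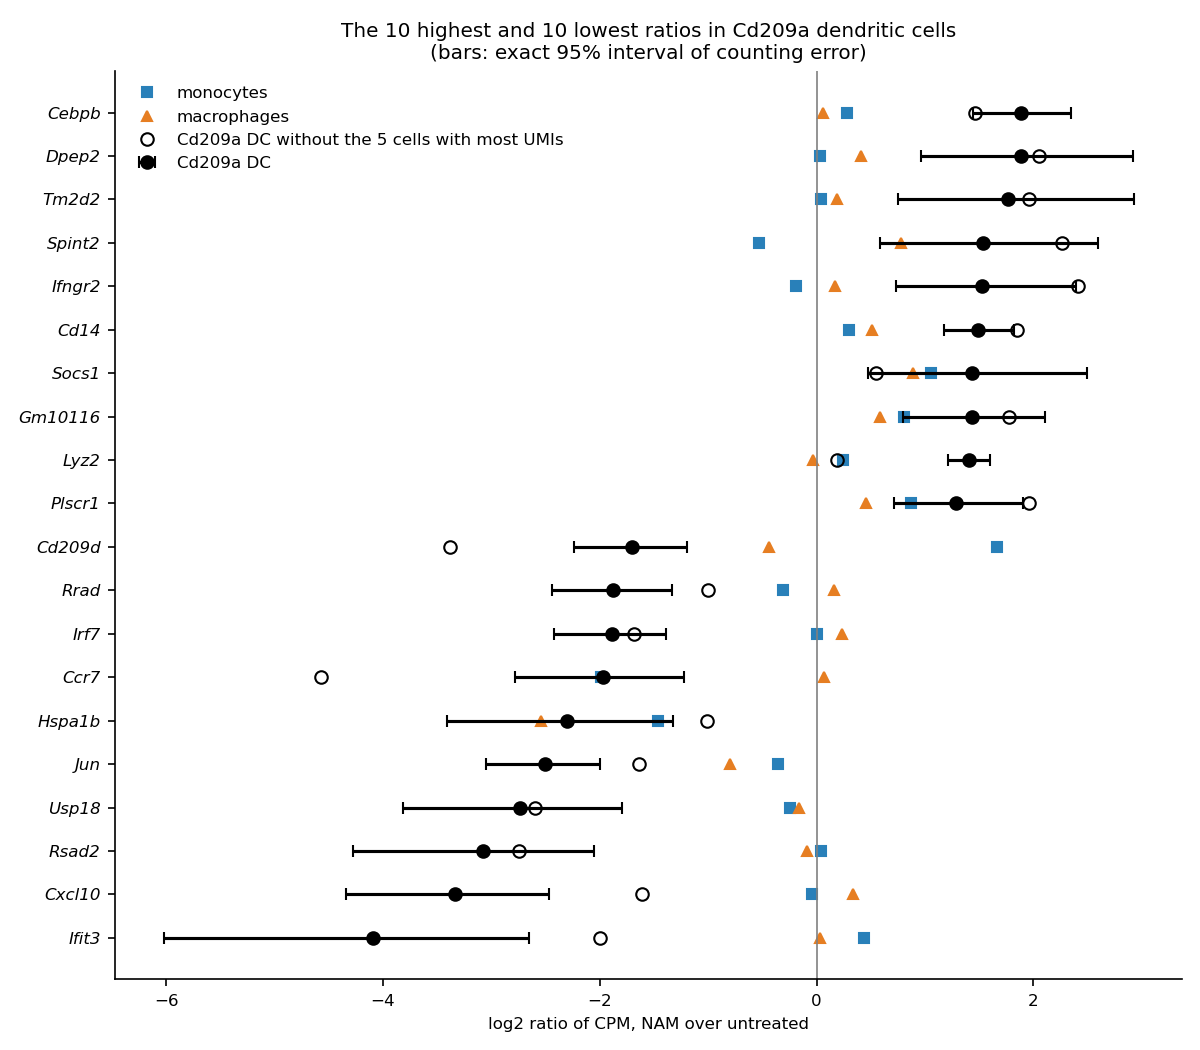
Log2 ratio of CPM, NAM over untreated (x axis), for the 10 highest and 10 lowest genes (y axis) in Cd209a dendritic cells (filled circles, bars for the exact 95% interval), in the same cells less the 5 richest in the gene (open circles), and in monocytes (squares) and macrophages (triangles). Ifit3 at −4.09 and Cebpb at 1.88 mark the ends, the open circle of Lyz2 lies at 0.19, and that of Ifit3 lies at −2.00, where 1 untreated and 0 NAM UMIs were left.

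Among genes with 50 or more UMIs that kept their direction without the 5 highest cells, Cebpb, the C/EBP beta transcription factor of myeloid cells (chr2:167688915-167690418), shared the highest ratio with Dpep2. It had 51 UMIs in 20 of 26 untreated members and 238 in 27 of 32 NAM members (227 and 839 CPM), a log2 ratio of 1.88 (1.44 to 2.35), and 1.46 (0.88 to 2.12) without the 5 highest cells. Per 10000 UMIs the median was 1.83 in untreated and 5.29 in NAM members, and the highest cells stood at 5.84 and 63.6, so that the median NAM cell stood close to the highest untreated cell. Cd14, the co-receptor for lipopolysaccharide, had 105 and 374 UMIs in 21 and 26 members (468 and 1318 CPM), a ratio of 1.49 (1.18 to 1.82), and 1.85 (1.36 to 2.40) without the 5 highest cells. Its medians per 10000 UMIs were 2.08 and 9.87. In monocytes the ratios of Cebpb and Cd14 were 0.28 and 0.30, and in macrophages 0.06 and 0.51.

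Genes of monocytes and macrophages stand beside this result. Less Cd14 and the genes of the rule (Ly6c2 and C1q), the monocyte list took 0.259% of untreated and 0.266% of NAM members' UMIs, against 0.779% and 0.895% in monocytes. The macrophage list took 0.135% and 0.195%, against 2.41% and 2.27% in macrophages. In single members the monocyte list ranged from 0.0770% to 0.580% among untreated and from 0.00841% to 1.09% among NAM cells, and the macrophage list from 0.0141% to 0.372% and from 0.0526% to 1.76%. Lyz2, the lysozyme of monocytes and macrophages (chr10:117277331-117282321), had 286 and 957 UMIs (ratio, 1.40, 1.21 to 1.60). Among members with a Flt3 UMI its ratio was −1.45. Of the 957 UMIs, 647 lay in 3 NAM cells, and without the 5 highest cells the ratio was 0.19 (−0.13 to 0.51). Apoe behaved likewise, with 123 and 302 UMIs (0.96) and 0.20 (−0.22 to 0.63) without the 5 highest cells. With the 3 members of each library richest in RNA of both lists (Cd14 and the rule's genes included) left out, Cebpb was at 1.42 (0.96 to 1.92) and Cd14 at 1.55 (1.17 to 1.97), whereas Lyz2 was at 0.042 (−0.21 to 0.30) and Apoe at 0.34, with an interval that reached 0.68 and took in 0. Of other genes of the lists, the fibronectin gene Fn1 was counted as higher (1 and 40 UMIs, 4.98, 2.42 to 10.3), but lay in 5 NAM members with 50% of its UMIs in 1 cell. Cd68, a lysosomal membrane protein of macrophages, had 64 and 127 UMIs, a ratio of 0.65 (0.20 to 1.11), and 0.82 (0.22 to 1.48) without the 5 highest cells, while Plac8 was at 0.07 (−0.18 to 0.31). Ms4a4c, a membrane protein gene of the monocyte list, had 213 and 187 UMIs, a ratio of −0.53 (−0.82 to −0.24), and 0.030 (−0.36 to 0.43) without the 5 highest cells.

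The other genes among the 10 highest had between 10 and 33 UMIs in untreated members. They were Dpep2, a dipeptidase that acts on leukotrienes (12 and 56 UMIs, ratio 1.88), Tm2d2 (10 and 43, 1.76), the protease inhibitor Spint2 (12 and 44, 1.53), Gm10116 (27 and 92, 1.43) and Plscr1, a phospholipid scramblase (33 and 102, 1.29). Without the 5 highest cells their ratios ranged from 1.77 to 2.26, and Tm2d2 was seen in 8 of 26 untreated and 22 of 32 NAM members.

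RNA for MHC class II presentation was slightly higher in NAM members. Of 11 MHC class II genes, 0 were counted as higher or lower, since none differed by 1.5-fold with an interval that left out 0, yet 7 intervals lay above 0 and none below, against 6.42% and 9.17% of all genes. Cd74, the invariant chain, had 44221 CPM in untreated and 51049 CPM in NAM members, a log2 ratio of 0.21 (0.17 to 0.24). H2-Aa, the class II alpha chain, was at 0.18 (0.12 to 0.23), H2-Ab1 at 0.15 (0.09 to 0.21) and H2-Eb1 at 0.26 (0.19 to 0.33). These small differences depended on the rule: with a minimum of 1 Cd209a UMI, H2-Aa was at −0.031 and H2-Ab1 at −0.030. The list was also higher in monocytes (median, 0.48) and macrophages (0.38). Single members overlapped, with Cd74 between 30.3 and 765 per 10000 UMIs in untreated and between 179 and 743 in NAM cells.

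MHC class I genes had a median of 0.02. H2-D1, a class I heavy chain, was at 0.40 (0.30 to 0.49), H2-K1 at 0.18 (0.00 to 0.36) and B2m at 0.02 (−0.09 to 0.12), while Tap2, a subunit of the peptide transporter, was counted as higher with 21 and 59 UMIs (1.15, 0.41 to 1.94). Among lysosomal genes (13, median 0.34), Cst3, which encodes the protease inhibitor cystatin C and is a hallmark of dendritic cells, had 3437 and 6170 UMIs (ratio, 0.50, 0.44 to 0.56), and 0.74 (0.66 to 0.82) without the 5 highest cells. Ctss, the protease that trims the invariant chain, was at 0.26 (0.09 to 0.43). The proteases Lgmn (24 and 65 UMIs, 1.10) and Ctsl (5 and 19 UMIs, 1.59) were counted as higher, and the membrane protein Lamp2 (57 and 45, −0.68) as lower.

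Heat shock genes were lower in NAM members, with 8 of 17 counted as lower and 0 as higher, against 7.67% and 3.57% of all genes, and a median log2 ratio of −0.69. Hspb1 had 20 UMIs in 4 untreated members and 0 in NAM members. Hspa1b had 43 and 11 UMIs (−2.31, −3.41 to −1.33), Hspa1a 485 and 196 (−1.65, −1.89 to −1.40), and the co-chaperone Dnajb1 68 and 32 (−1.43, −2.08 to −0.80). Among members with a Flt3 UMI Hspa1b was at 0.034. In 1 untreated cell lay 42.1% of the Hspa1a UMIs. Hspa8, which was found in every member, had 5057 and 3531 CPM, a ratio of −0.52 (−0.64 to −0.39) and −0.54 (−0.70 to −0.38) without the 5 highest cells, and Hsp90aa1 was at −0.75. The list's median was −0.43 in monocytes, −0.21 in macrophages, −0.16 in mature and 0.10 in type 1 dendritic cells, and Hspa1b stood at −1.46 in monocytes and −2.54 in macrophages.

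Among immediate early genes, which cells switch on within minutes of a stimulus, the members went different ways (18 genes, median −0.08; 1 higher, 3 lower). Jun had 175 and 39 UMIs in 16 members of each library (ratio, −2.51, −3.05 to −2.00), with 36% of the untreated UMIs in 1 cell and a ratio of −1.64 (−2.69 to −0.70) without the 5 highest. Jund, found in every member, was at −0.90 (−1.15 to −0.66), whereas Junb was at 0.14 (−0.03 to 0.31) and Fos at −0.06 (−0.34 to 0.23). Jun was also lower in macrophages (−0.80) and monocytes (−0.36). Of other transcription factors, Irf8 was counted as higher (33 and 72 UMIs, 0.79, 0.17 to 1.43; −0.70, −2.24 to 0.89, among members with a Flt3 UMI), and Klf6 (73 and 48 UMIs, −0.94), Zeb2 (39 and 19, −1.38) and Nfkb1 (54 and 33, −1.05) were lower. Rrad, a small GTPase, was lower too (113 and 39 UMIs, −1.87), with 60.2% of the untreated UMIs in 1 cell.

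**Figure D4:**
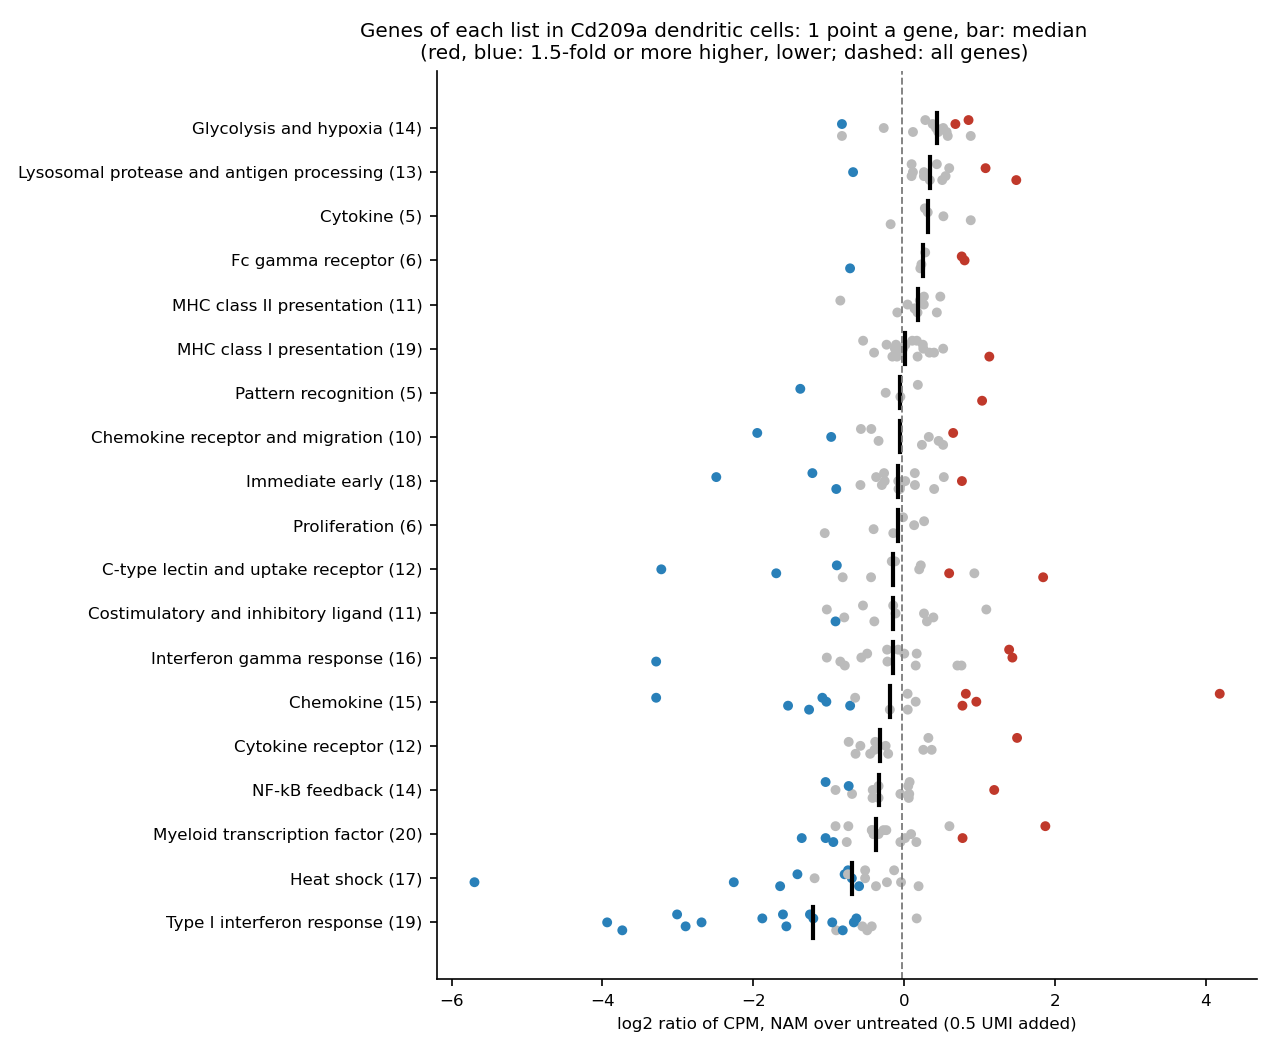
Log2 ratio of CPM, NAM over untreated, with 0.5 UMI added to each sum (x axis), of the genes of each pathway list with 5 or more genes counted (y axis, number of genes in parentheses) in Cd209a dendritic cells, as 1 point a gene with the list's median as a bar. Of these lists, type I interferon genes lie lowest (median, −1.20), followed by heat shock genes (−0.69), whereas glycolysis genes lie highest (0.44). Red and blue points are genes counted as higher and lower, and the dashed line is the median of all genes. The lowest heat shock point is Hspb1, with 20 UMIs in untreated and 0 in NAM members, and the highest chemokine point is Ccl24, whose 34 UMIs in NAM members lay in 1 cell.

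Lectin and uptake genes did not share a direction: of 12 genes 2 were counted as higher and 3 as lower, and the median was −0.14, or 0.54 without the 5 highest cells of each gene. Cd209d had 116 UMIs in 12 and 45 in 7 members, a ratio of −1.71 (−2.24 to −1.20), with the UMIs of both libraries in few cells: the 3 highest held 81 of 116 among untreated and 41 of 45 among NAM members, and 71.1% of the NAM UMIs lay in 1 cell. Outside these 3 cells 35 UMIs in 9 untreated and 4 in 4 NAM members were left. Cd209e had 40 and 5 UMIs (−3.34, −5.04 to −2.00) in 7 and 2 members, and Clec10a 56 and 38 in 11 members of each library (−0.90, −1.53 to −0.28). The untreated member that stood apart in MHC class II RNA held 34 of the Cd209d, 15 of the Cd209e and 20 of the Clec10a UMIs. Another untreated member held 16 of the Cd209e UMIs. These lower sums therefore rest in part on single cells. Clec10a was at 0.15 (−0.65 to 1.03) in members free of the 4 maturation genes. Cd209a itself, a gene of the rule, was not counted as lower: it had 345 and 322 UMIs, a ratio of −0.44 (−0.66 to −0.22), which was 0.041 with each cell thinned to 3000 UMIs. Mgl2 was at −0.16 (−0.42 to 0.10) and, without the 5 highest cells, at 0.80 (0.34 to 1.29). The uptake receptors that went the other way were Clec4n, which encodes Dectin-2 (109 and 209 UMIs, 0.60, 0.26 to 0.95), and the inhibitory Clec12a (6 and 29 UMIs, 1.93, 0.64 to 3.49).

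In the untreated library 9 of 12 members with Cd209d had Clec10a, against 2 of 14 without it, and in the NAM library 3 of 7 against 8 of 25. Mgl2 was found in 7 of 12 untreated members with Cd209d against 8 of 14 without it, and in 5 of 7 against 15 of 25 NAM members. With so few cells these shares are a description, and their differences were not tested. Across cells, Il1r2 and Ifitm1 followed each other (Spearman's rho, 0.39 over the 26 untreated and 0.72 over the 32 NAM members), a description of cells that share a library and differ in depth. Cd14 and Cebpb had a rho of 0.27 and 0.42.

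Maturation genes, of which the rule allows UMIs of 1 per cell, had a median of −0.91 over 7 genes, Ccr7 among them. With members free of the 4 maturation genes (15 untreated and 23 NAM) the list's median was 0.36. There Ccr7 has no UMI by definition and leaves the list, so the medians cover different genes and cannot be compared. Ccr7, a gene of the rule, had 62 UMIs in 10 and 20 in 5 members (−1.97). Cd83, an activation marker that the rule did not use, had 223 and 150 UMIs in 24 members of each library (994 and 529 CPM), a ratio of −0.91 (−1.22 to −0.61), and −1.07 (−1.50 to −0.66) without the 5 highest cells. Of 11 genes common to dendritic cells, 0 were counted as higher and 3 as lower, against 3.57% and 7.67% of all genes, with a median of −0.16 (0.13 without the 5 highest cells of each gene, against 0.10 for all genes). Of these Cd24a (24 and 2 UMIs, −3.92) and the kynurenine enzyme Kmo (21 and 10, −1.41) were lower.

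Chemokines did not share a direction (15 genes, median −0.19). Of them 4 were counted as higher and 6 as lower, against 3.57% and 7.67% of all genes. Cxcl2, which attracts neutrophils, had 157 and 340 UMIs (0.78, 0.50 to 1.06), of which the 3 highest cells held 119 and 198. Its ratio was 1.55 (0.85 to 2.36) without its 5 highest cells and 0.013 (−0.29 to 0.32) without the 3 members richest in monocyte and macrophage RNA. Ccl6 had 132 and 295 UMIs (0.82, 0.52 to 1.13) and Ccl9 62 and 153 (0.96, 0.53 to 1.41). Without the 3 members of each library richest in monocyte and macrophage RNA, Ccl6 was at 0.022 (−0.32 to 0.37) and Ccl9 at −0.020 (−0.54 to 0.51), and among members with a Flt3 UMI they were at −0.53 and −0.75. The fourth counted as higher was Ccl24, with 1 UMI in untreated members and 34 in a single NAM cell. Ccl3 (42 and 18 UMIs, −1.56), Ccl4 (178 and 110, −1.03) and Ccl5 (59 and 35, −1.09) were lower, and without the 5 highest cells none of the 3 intervals left out 0. Among members with a Flt3 UMI Ccl5 was at 1.00. Il1b, which gave 1098 of the 1200 UMIs of the cytokine list in untreated members, stood at 4896 and 4323 CPM, a ratio of −0.18 (−0.30 to −0.06). Il10 had 0 UMIs in the members of either library (0 of 26 and 0 of 32 cells; 3 UMIs would correspond to 13.4 and 10.6 CPM), whereas monocytes stood at 55.5 and 16.4 CPM and macrophages at 76.4 and 27.0 CPM. With so few cells a change of Il10 in the members was not detectable.

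Of 14 genes of glycolysis and hypoxia, 2 were counted as higher and 1 as lower (median, 0.44), against 3.57% and 7.67% of all genes, and 6 intervals lay above 0, against 6.42%. Aldoa, the aldolase of glycolysis, had 148 and 339 UMIs (0.86, 0.57 to 1.14), Tpi1 57 and 116 (0.69, 0.22 to 1.17) and Gapdh 184 and 348 (0.58, 0.32 to 0.85). Of genes of NAD metabolism, the pathway that nicotinamide feeds, 3 had enough UMIs. Nampt, the enzyme that turns nicotinamide into its mononucleotide, had 25 UMIs in 13 and 14 in 9 members (111 and 49.3 CPM), a ratio of −1.18 (−2.23 to −0.18), and without the 5 highest cells the interval (−3.88 to 0.04) no longer left out 0. Among members with a Flt3 UMI it was at 0.034.

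**Figure D5:**
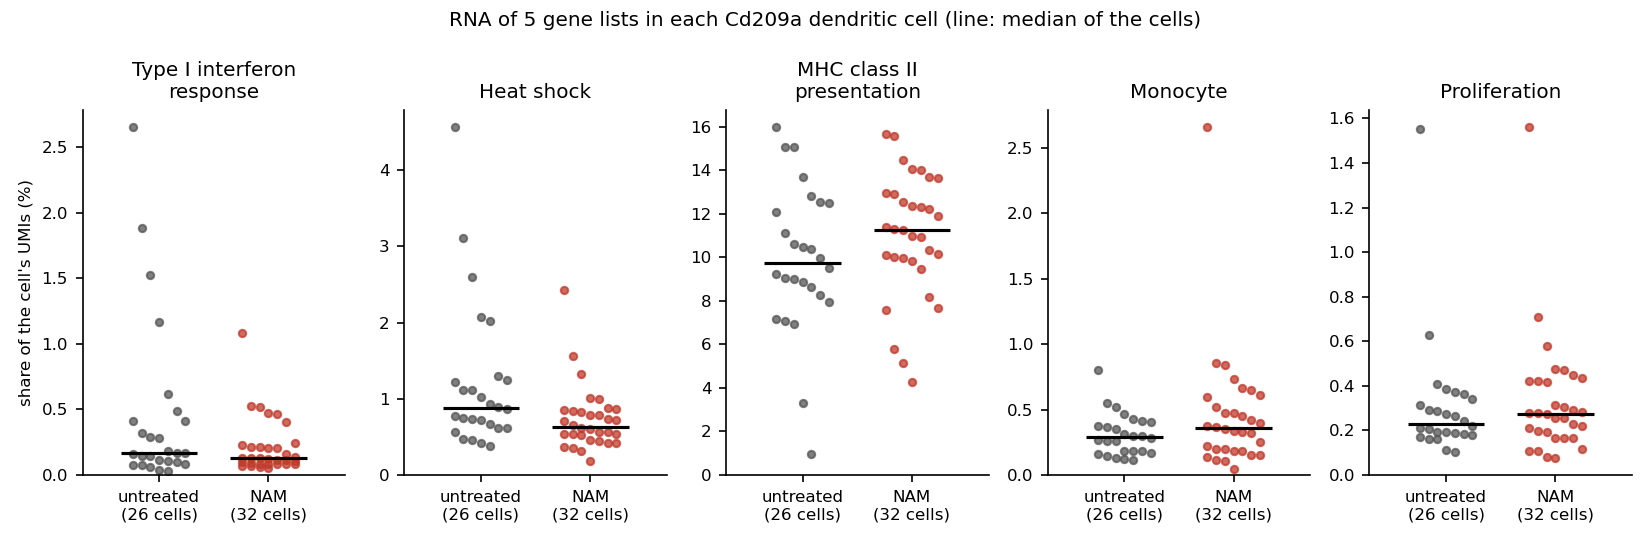
Share of each cell's UMIs (y axis, %, a different range in each panel) on 5 gene lists in the 26 untreated (grey) and 32 NAM (red) Cd209a dendritic cells, 1 point a cell, with the median as a line. For type I interferon genes 4 untreated cells stand at 1.16% or more, above every NAM cell, while the medians are 0.169% and 0.130%; for MHC class II genes the medians are 9.73% and 11.3%.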

How the data were processed

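Per the study's methods, CD45+ cells were loaded on the 10x Chromium platform (3′ v2 kit), and the authors made the deposited UMI counts per gene and cell with Cell Ranger 2.1.0 on mm10. The annotation version is not given in the sources used here. The deposited cells had at least 3001 UMIs and 1020 genes and at most 5.85% mitochondrial UMIs, within the filter of the methods (3000 UMIs, 1000 genes, 10%), so shallow cells are not analysed here. No doublet caller was run, and how the authors treated doublets is not given in the sources used here. Counts were summed over members per library and divided by the library's UMIs in members. Ratios carry exact conditional binomial intervals, levels exact Poisson intervals and shares of cells exact Clopper-Pearson intervals. Genes with 20 or more UMIs in the members were counted. Lists had 0.5 UMI added to each sum before the ratio. The members and gene lists were chosen with earlier results of these data known. Genes named were the given markers, genes of the rule, the 10 highest and 10 lowest ratios among genes with 50 or more UMIs that kept direction without the 5 highest cells, the 10 genes that most exceeded all 4 classes, and genes of the lists with most UMIs or counted as higher or lower. Of the list symbols, 493 matched the files and 10 did not. Python 3.11.15, NumPy 2.4.6, SciPy 1.17.1, pandas 2.3.3 and scikit-learn 1.9.0 were used. Gene coordinates are from GENCODE on GRCm38.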

Additional observations from a re-analysis of the deposited data

Results flagged for a closer look

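In 8 comparisons the ratio of NAM over untreated had one sign in the Cd209a dendritic cells and the opposite sign in another class, with each interval of counting error on its own side of 0. None of these differences was tested, since each class has 1 library a group. Ifit3 was at −4.09 in the members and 0.44 in monocytes. Cxcl10 was at −3.34 in the members and 0.33 in macrophages, and Irf7 was at −1.89 and 0.24. Rrad was at −1.87 in the members, 0.61 in mature dendritic cells and 0.16 in macrophages. Cd209d was at −1.71 in the members and 2.78 in mature dendritic cells, where it had 16 and 53 UMIs. Ifitm1 was at 0.77 in the members and −2.56 in type 1 dendritic cells, where it had 134 and 26 UMIs. Lyz2 was at 1.40 in the members (−1.45 in those with a Flt3 UMI) and −0.035 in macrophages. For Ifit3, Cxcl10 and Rrad in the members, most UMIs of the untreated library came from 3 or fewer cells or from 1 cell, as given above. In NAM members 647 of the 957 Lyz2 UMIs lay in 3 cells, with a ratio of 0.19 (−0.13 to 0.51) without the 5 highest cells, and 71.1% of the Cd209d UMIs lay in 1 cell, while 3 untreated members held 81 of 116 Cd209d UMIs.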

How the results depend on the processing

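The choices tried were the Cd209a minimum (1 or 3 UMIs), the C1q limit (0.1% or 0.5%), members free of maturation genes, of Ly6c2 or of T cell UMIs, members with a Flt3 UMI, depth (thinning to 3000 UMIs), scaling, weight per cell, pseudocount and gene minimum, and leaving out cells with most RNA of a gene or list. The versions without T cell UMIs and without the 3 cells with most interferon or monocyte and macrophage RNA were chosen after seeing the data. Pseudocount and gene minimum were tried on list medians only. Of 77 named genes with an interval that left out 0, 52 kept their direction in each of the 15 choices that give values for single genes. The 10 highest and 10 lowest genes had been chosen to keep direction without their 5 highest cells, so that choice could not change it.
With 1 or more Flt3 UMIs, 6 untreated and 10 NAM cells remained, 98 genes were lower, and the median of the list was 0.30 for type I interferon, 0.94 for macrophage, 0.57 for MHC class II, −1.18 for costimulatory ligand and −0.98 for NF-kB feedback genes. There Ifit3 was at 1.95, Ifit1 2.31, Ifit2 2.31, Rsad2 2.84, Usp18 3.39, Isg15 1.74, Phf11b 1.02, Zbp1 1.57, Ifi204 1.21, Xaf1 0.24, Hspa1b 0.034, Ccl5 1.00, Nampt 0.034, Lyz2 −1.45, Irf8 −0.70, Ms4a4c 0.25, Ifitm2 −0.064, Ccl6 −0.53 and Ccl9 −0.75. All Rsad2 UMIs of these NAM members lay in 1 cell.
Thinning left 50 genes higher and 76 lower, with Cd209a at 0.041 and H2-K1 at −0.29. With a minimum of 1 Cd209a UMI, H2-Aa was at −0.031, H2-Ab1 at −0.030 and Apoe at −0.24. Without maturation genes the maturation list, which then lacks Ccr7, was at 0.36, proliferation at 0.31 and Clec10a at 0.15, without Ly6c2 heat shock was at −0.36, and without T cell UMIs lysosomal genes were at 0.61. Without the 3 cells with most interferon RNA that list was at −0.55, and without the 3 with most monocyte and macrophage RNA Ccl9 was at −0.020. Without its own 5 highest cells Zbp1 was at 0.63, Ifi204 at 0.40 and Ms4a4c at 0.030. A gene with no UMI left under a choice was given no value there. The cause of these shifts was not tested. No paired analysis was possible because each group has 1 library.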
